A study of Mus musculus with 6 samples.

Results

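The stress keratins Krt6a, Krt6b, Krt16 and Krt17 are 4 genes of the keratin family, picked by symbol from the 41214 gene identifiers counted in mouse epidermis with and without ARPC4. They were picked with their difference between the genotypes already known, so their values in ko and wt are given here as a description and carry no test. Messenger RNA came from trypsin-treated skin of C57BL/6 mice at postnatal day 4, with 3 libraries of ARPC4 knockout epidermis (ko) and 3 of wild type epidermis (wt). ARPC4 is a subunit of the Arp2/3 complex, which starts branched actin filaments, and the series title names a psoriasis-like disease in epidermis without that complex. Replicate numbers were read from the titles, which say I, II or Tryp. Number 3 stands here for the ko and the wt library titled Tryp, whose titles carry no date. The promoter or Cre line behind the deletion is not given in the sources used here, and nothing in the labels says whether each library came from 1 animal, so the spread between replicates may be partly technical.

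Keratins are the intermediate filament proteins of epithelial cells, and each filament is built from pairs of an acidic type I and a basic type II chain. Krt6a and Krt6b encode type II chains, and Krt16 and Krt17 encode type I chains with which they pair. In undisturbed skin these keratins belong mainly to the hair follicle, the nail and the skin of the paw, while the epidermis between follicles is built on Krt5 and Krt14 in its basal layer and on Krt1 and Krt10 above it. They appear in that epidermis after wounding and in hyperproliferative disease, psoriasis among them, and are then called stress or alarm keratins.

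Libraries held 17561294 to 22659511 reads assigned to genes. Levels are CPM, read counts scaled to a common library size, here with TMM scaling (the trimmed mean of M-values). Of 13704 genes tested with edgeR, 30 were called higher in ko and 0 lower at a Benjamini-Hochberg adjusted p below 0.05, and an unadjusted p below 0.05 was found for 1094 genes on the higher side and 720 on the lower. DESeq2 called 431 higher and 219 lower, and limma-voom called 0. Arpc4 itself stood at 67.5, 65.6 and 64.5 CPM in ko and at 72.5, 82.5 and 73.1 CPM in wt. Its log2 fold change was -0.21 (SE 0.10, edgeR adjusted p = 0.469), and since the deleted part of the gene is not given, this level does not check the deletion. All 4 stress keratins passed the filter on low counts. Krt1, Krt10, Krt5 and Krt14, which define the epidermis, were counted at 814 CPM or more in every library.

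The members share long stretches of sequence, which matters because a read that aligned in several places was counted for no gene. The coding sequences of Krt6a (1662 bases) and Krt6b (1665 bases) were identical at 97.8% of aligned positions. Krt16 was closer to Krt14 (86%) than to Krt17 (77.5%), and Krt17 was closer to Krt14 (83.8%) than to Krt16. Identity between a type I and a type II member was 62.2 to 63.7%. The windows below are 51 bases long, the length of a read. The first pair shows a read that fits both Krt6 genes equally well, the second differs at 3 bases and the third is the pair of windows that differ most (10 bases). They lie on the minus strand of mm10, at chr15:101678983-101679033 and chr15:101693010-101693060 for the identical pair, at chr15:101679811-101679861 and chr15:101693836-101693886 for the pair with 3 differences, and at chr15:101678303-101678353 and chr15:101692484-101692534 for the third, with Krt6b given before Krt6a. All are coding exons, printed 5′ to 3′ from GENCODE M21 transcripts, and capitals mark bases that differ within the pair.
Krt6b, identical window: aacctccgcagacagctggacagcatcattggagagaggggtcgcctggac
Krt6a, identical window: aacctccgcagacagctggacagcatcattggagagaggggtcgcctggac
Krt6b, 3 differences: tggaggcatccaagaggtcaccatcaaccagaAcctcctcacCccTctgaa
Krt6a, 3 differences: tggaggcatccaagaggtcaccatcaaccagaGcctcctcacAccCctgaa
Krt6b, most differences: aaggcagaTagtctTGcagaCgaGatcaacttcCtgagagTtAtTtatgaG
Krt6a, most differences: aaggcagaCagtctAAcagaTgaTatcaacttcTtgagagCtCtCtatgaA

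Krt16 shares such windows with Krt14, the type I keratin of basal cells, whose gene lies 38543 bases away. An identical pair and the pair that differs most, at 22 bases, are shown for the same reason as above. They lie on the minus strand at chr11:100248537-100248587 and chr11:100207078-100207128 for the identical pair and at chr11:100247136-100247186 and chr11:100204458-100204508 for the other, with Krt16 given before Krt14.
Krt16, identical window: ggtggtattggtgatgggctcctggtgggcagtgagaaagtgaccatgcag
Krt14, identical window: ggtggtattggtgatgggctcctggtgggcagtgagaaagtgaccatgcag
Krt16, most differences: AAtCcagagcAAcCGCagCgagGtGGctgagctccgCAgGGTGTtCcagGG
Krt14, most differences: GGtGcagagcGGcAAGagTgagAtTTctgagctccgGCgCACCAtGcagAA

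Each transcript was cut into all its 51-base windows, and each window was searched in the transcripts of every other gene on either strand. With up to 2 mismatches allowed, 29.9% of Krt6b windows, 33.5% of Krt16 windows, 36.4% of Krt6a windows and 80.1% of Krt17 windows were found in no other gene. Among 53 protein-coding keratins the members ranked 1, 3, 4 and 16 from the lowest share, in that order, and the median keratin had 96.7%. With an exact match required the shares were 50.3% for Krt6b, 63% for Krt16, 50.8% for Krt6a and 96.4% for Krt17. Introns and intergenic sequence were not searched.

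Windows inside the coding sequence were much less often a gene's own than the rest of the transcript. Up to 2 mismatches, the shares inside were 6.75% for Krt6b, 12.5% for Krt6a, 26.2% for Krt16 and 76.1% for Krt17. For windows that reach outside the coding sequence they were 95.4%, 99%, 98.1% and 100% in the same order. Krt6a and Krt6b shared 1365 windows with each other, and Krt6b shared 596 with Gm5478 and 254 with Krt5. Krt16 shared 627 windows with the pseudogene Gm11597, 453 with Krt14 and 61 with Krt17. Krt17 shared 289 with Krt14.

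**Figure D1:**
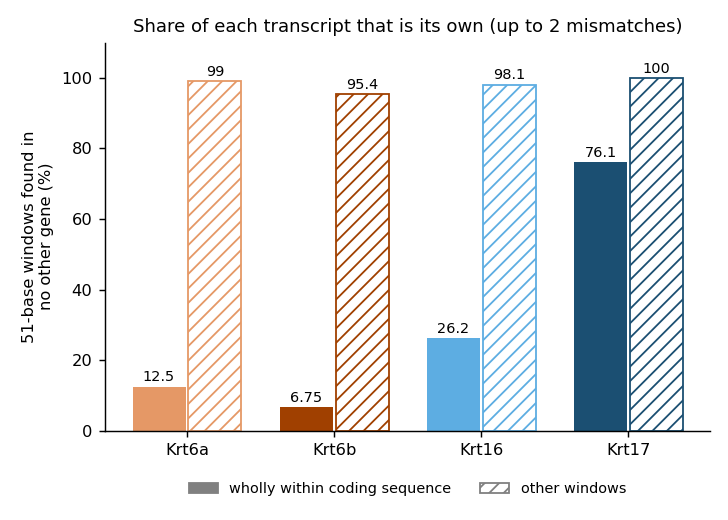
Percentage of 51-base windows of each member's transcript that were found in no other gene with up to 2 mismatches, for windows wholly within the coding sequence (filled) and all other windows (hatched). Inside the coding sequence the share was 6.75% for Krt6b and 76.1% for Krt17, while outside it the share was 95.4% or more for all 4 members.

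Krt6a (ENSMUSG00000058354, mm10 chromosome 15, 101689910 to 101694307, minus strand) encodes the type II keratin of the follicle's companion layer that is also raised at wound edges. It was counted at 647, 1715 and 1634 CPM in ko and at 134, 152 and 59 CPM in wt. The lowest ko library lay 4.25 times above the highest wt library, so the groups did not overlap. Group means were 1332 ± 595 CPM in ko and 115 ± 49.3 CPM in wt (SD, n = 3 each), an 11.6-fold difference with a fitted log2 fold change of 3.53 (SE 0.52). An antisense gene overlaps Krt6a in GENCODE and the strand option of the counting is not given in the sources used here, so reads of the pair cannot be told apart.

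Krt6b (ENSMUSG00000023041, mm10 chromosome 15, 101676023 to 101680287, minus strand), its near copy, had the widest difference of the members. Its levels were 764, 3006 and 1942 CPM in ko and 6.34, 20.8 and 21.1 CPM in wt. The wt values rested on 144, 392 and 466 reads, so the gene was counted in wt epidermis but at a low level. The lowest ko library stood 36.1 times above the highest wt library. Means were 1904 ± 1122 CPM in ko and 16.1 ± 8.46 CPM in wt (SD, n = 3 each), with a log2 fold change of 6.89 (SE 0.76), which is 118-fold.

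Krt16 (ENSMUSG00000053797, mm10 chromosome 11, 100246091 to 100248902, minus strand), the type I partner of Krt6 in hyperproliferative epidermis, had the highest mean CPM of the members in ko. It was counted at 1733, 4743 and 3537 CPM in ko and at 128, 96.1 and 233 CPM in wt. The groups did not overlap, with the lowest ko library 7.43 times above the highest wt library. Means were 3337 ± 1515 CPM in ko and 152 ± 71.8 CPM in wt (SD, n = 3 each), with a log2 fold change of 4.45 (SE 0.52), or 21.9-fold.

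Krt17 (ENSMUSG00000035557, mm10 chromosome 11, 100256217 to 100261029, minus strand), a type I keratin of the follicle that also binds the adaptor protein 14-3-3 sigma, was abundant in both genotypes. Its levels were 1832, 1921 and 3544 CPM in ko and 1771, 1794 and 1263 CPM in wt. Every ko library was above every wt library, but by a margin of only 1.02 times, and ko replicate 3 stood apart from the other ko libraries. Means were 2432 ± 964 CPM in ko and 1609 ± 300 CPM in wt (SD, n = 3 each), a log2 fold change of 0.60 (SE 0.31). Without ko replicate 3 it was 0.19, and among the 4 libraries with a date in their title, which leave out replicate 3 of both groups, it was 0.05.

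In the fit over all genes Krt6b and Krt16 were among those called higher in ko (0.219% of 13704 genes), and Krt6a and Krt17 were not. Every ko library exceeded every wt library for all 4 members and for 11.3% of all genes tested. Both counts follow from the contrast on which the members were picked and nothing is read from them. Krt6b and Krt16 were both also called without ko replicate 1, without ko replicate 3, by DESeq2, with a replicate block and with the dated titles as a covariate. Their calls were lost without ko replicate 2 or without any 1 of wt replicates 1, 2 and 3. EdgeR then called 0 genes at all, while 1229 to 2350 genes had an unadjusted p below 0.05. Each such fit has fewer libraries for every gene, so lower power and the part of the library left out cannot be told apart. Krt16 was also not among the calls with total counts as the only scaling or with a filter of 1 CPM, while Krt6b was, and in the 4 libraries with a date in their title Krt16 was called and Krt6b was not. Krt6a was called by DESeq2, with a replicate block and with the dated titles as a covariate, settings that called 650, 354 and 709 genes, and Krt17 was called under none of the settings tried. Limma-voom called 0 genes. In bulk tissue, more cells with a transcript and more transcript per cell cannot be told apart.

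**Figure D2:**
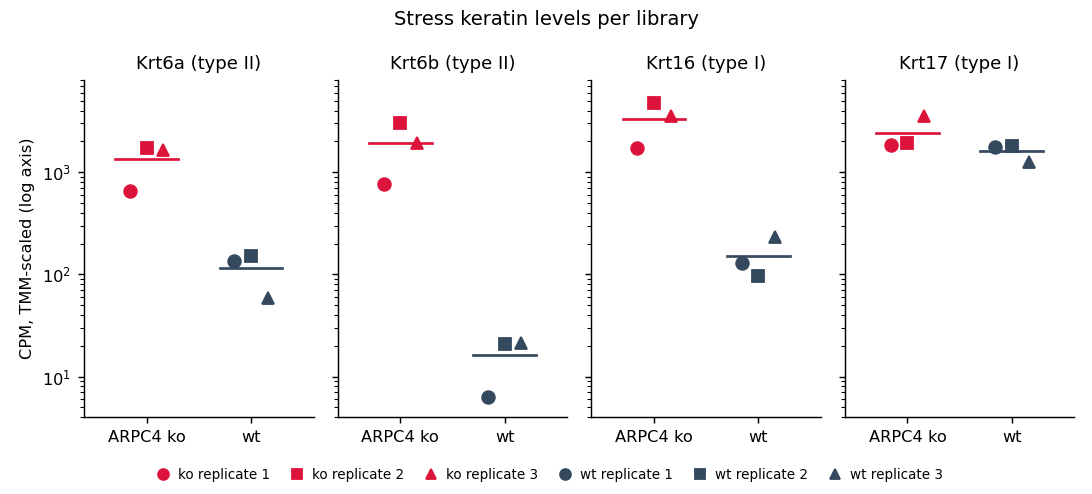
Level of each stress keratin in CPM (TMM-scaled, log axis) in the 3 ARPC4 ko and the 3 wt libraries, with symbols for replicates and lines for group means. For Krt6a, Krt6b and Krt16 the lowest ko library lies 4.25, 36.1 and 7.43 times above the highest wt library, while for Krt17 the margin is 1.02 times.

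Replicates of a genotype differed among themselves, and not in the same order for every member. Within ko, replicate 1 was the lowest for Krt6a, Krt6b and Krt16, with a ratio of highest to lowest library of 2.65, 3.94 and 2.74. Krt17 did not follow this order, being highest in ko replicate 3 at a ratio of 1.93. Within wt, replicate 3 had the lowest Krt6a and the highest Krt16, Krt6b was lowest in replicate 1, and the ratios ran from 1.42 for Krt17 to 3.33 for Krt6b. The replicate SD of log2 CPM, pooled over both groups, was 1.0 for Krt6b, 0.77 for Krt6a, 0.70 for Krt16 and 0.43 for Krt17.

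The basal keratins of the same libraries ran in another order. Krt5, the type II keratin of basal cells and the gene next to Krt6a (12763 bases apart), was counted at 1292, 1677 and 5443 CPM in ko and at 3424, 846 and 4301 CPM in wt. Krt14, its type I partner, stood at 1138, 2053 and 3519 CPM in ko and at 1982, 814 and 2361 CPM in wt. Both were highest in ko replicate 3, as was Krt17, and lowest in wt replicate 2, where Krt17 was at its highest wt level. Their groups overlapped, with log2 fold changes of -0.03 (SE 0.73) for Krt5 and 0.38 (SE 0.51) for Krt14 (edgeR adjusted p = 0.993 and 0.842).

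Levels of different genes can be set side by side only per length, so CPM were divided by the length of each member's transcript (1551 bases for Krt17, 1565 for Krt16, 2235 for Krt6b and 2278 for Krt6a). In ko epidermis Krt16 was measured at 1107, 3031 and 2260 CPM per kb, Krt17 at 1181, 1238 and 2285, Krt6b at 342, 1345 and 869 and Krt6a at 284, 753 and 717. Krt16 lay clearly above Krt17 only in ko replicate 2, and the ko ranges of neighbouring members overlapped in each case. In wt epidermis Krt17 stood far above the others, at 1142, 1157 and 815 CPM per kb. Krt16 followed at 81.6, 61.4 and 149 CPM per kb in wt, Krt6a at 58.6, 66.8 and 25.9, and Krt6b at 2.84, 9.33 and 9.45. Krt17 was first and Krt6b last in every wt library, while Krt16 and Krt6a swapped places in wt replicate 2 and their wt ranges overlapped.

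The same scale places the members among 53 protein-coding keratins ranked by mean CPM per kb. Krt16 was 3rd in ko (2133) and Krt17 4th (1568), behind Krt10 and Krt1 at 24787 and 22545, while Krt6b was 7th (852) and Krt6a 10th (585). In wt Krt17 was also 4th (1038), Krt16 was 23rd (97.3), Krt6a 27th (50.4) and Krt6b 34th (7.21). Within ranks 3 to 10 in ko, which also held Krt14, Krt5, Krt71 and Krt79, the range of each keratin over its libraries overlapped that of the next. Krt16, at 3031 CPM per kb in its highest ko library, lay below Krt1, at 14861 in its lowest.

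Per kb, the stress keratins made up 4.85, 8.79 and 13.5% of all keratin reads in ko and 2.65, 2.28 and 2.67% in wt. These shares depend on the rest of the pool as well. Krt1 and Krt10 together held 85.3, 82.8 and 67.7% of it in ko and 78.6, 82.1 and 74.7% in wt. The wt libraries agreed closely at 2.53 ± 0.219%, and the ko libraries, at 9.04 ± 4.31%, were all higher and spread widely (SD, n = 3 each). The difference of 6.50 percentage points was 4.29 without ko replicate 3. Krt16 and Krt17 together took 7.17, 11.1 and 18.7% of type I reads in ko and 4.72, 4.04 and 4.85% in wt. Krt6a and Krt6b together took 2.22, 6.19 and 7.48% of type II reads in ko and 0.273, 0.286 and 0.201% in wt. As a share of all reads in genes, without regard to length, the 4 genes held 0.482, 1.04 and 1.16% in ko and 0.204, 0.188 and 0.178% in wt.

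The makeup of the stress keratins themselves also differed. Per kb, Krt17 was 40.5, 19.4 and 37.3% of the 4 genes' reads in ko and 88.9, 89.4 and 81.5% in wt. Krt16 was 38, 47.6 and 36.9% in ko and 6.35, 4.74 and 14.9% in wt. Krt6b was 11.7, 21.1 and 14.2% in ko and below 1% in each wt library, and Krt6a was 9.74, 11.8 and 11.7% in ko and 4.56, 5.16 and 2.59% in wt. Krt17 thus held most of the wt pool and, in ko, a share near or below that of Krt16.

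The type I to type II balance, taken as (Krt16 + Krt17) over (Krt6a + Krt6b) per kb, was 3.66, 2.03 and 2.86 in ko and 19.9, 16 and 27.2 in wt. Type I transcripts outnumbered type II transcripts in all 6 libraries, by less in every ko library than in any wt library. On the log2 scale the balance was 1.47 ± 0.42 in ko and 4.36 ± 0.39 in wt (SD, n = 3 each), a difference of -2.89. The difference was nearly absent without Krt17. Krt16 over the Krt6 pair was 1.77, 1.44 and 1.42 in ko and 1.33, 0.806 and 4.21 in wt, with a log2 difference of -0.10 and overlapping groups. The lower balance in ko thus rests on Krt17, which was abundant in wt and differed far less between genotypes than the other 3 genes.

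Within each type the near neighbours diverged. Krt6b over Krt6a, per kb, was 1.2, 1.79 and 1.21 in ko and 0.0484, 0.14 and 0.365 in wt, a log2 difference of 3.35, so Krt6b was the minor gene of the pair in wt and the larger in ko. Krt16 over Krt17 was 0.938, 2.45 and 0.989 in ko and 0.0715, 0.0531 and 0.183 in wt, a log2 difference of 3.89. Set against the basal type I keratin on the same chromosome, Krt16 over Krt14 was 1.65, 2.51 and 1.09 in ko and 0.0699, 0.128 and 0.107 in wt. Krt17 over Krt14 was 1.76, 1.02 and 1.1 in ko and 0.978, 2.41 and 0.586 in wt, and the groups overlapped.

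**Figure D3:**
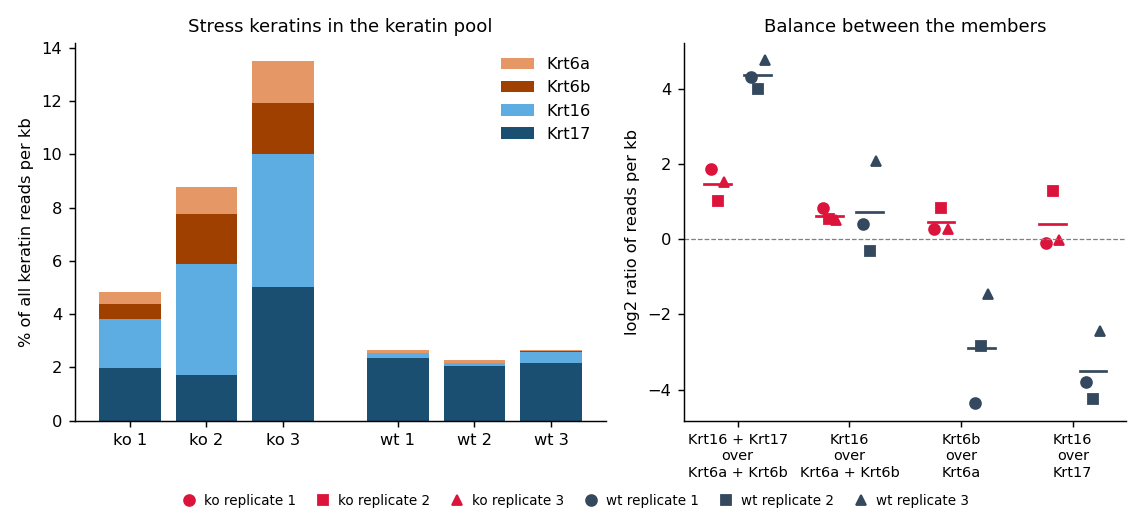
Left, share of all keratin reads per kb taken by each stress keratin in each library (stacked bars, ko before wt), 4.85 to 13.5% in all in ko and 2.28 to 2.67% in wt. Right, log2 ratios of reads per kb between members, with symbols for replicates and lines for group means: the balance of type I over type II differs between genotypes by -2.89, and by -0.10 when Krt17 is left out.

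The balance over the whole keratin family did not move with that of the stress keratins. Type I keratins were 53.2, 53.2 and 53.4% of all keratin reads per kb in ko and 53.5, 53.1 and 53% in wt, where Krt1 and Krt10 made up most of the pool. Without Krt1 and Krt10, type I keratins were 54.6, 57.8 and 56.9% in ko and 49.4, 49.1 and 49.6% in wt, and each ko library was higher than each wt library. With the stress keratins left out as well the shares were 42.8, 48.1 and 44.6% in ko and 42.9, 42.5 and 44.1% in wt, and the groups overlapped. These shares come from the libraries in which the members were picked and are a description.

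How length is counted changed the size of these values. Dividing by the number of 51-base windows found in no other gene (up to 2 mismatches) in place of the transcript length gave a balance difference of -2.36 log2. The stress keratins were then 10.2, 20.2 and 25.5% of the keratin pool in ko and 3.53, 3.08 and 3.89% in wt, a difference of 15.13 percentage points. On that scale, in which kb of transcript are replaced by kb of own windows, Krt16 was measured at 3411, 9336 and 6962 CPM per kb in ko and at 251, 189 and 459 CPM per kb in wt. Krt17 stood at 1524, 1598 and 2948 CPM per kb in ko and at 1473, 1493 and 1051 CPM per kb in wt, and Krt16 was above it in all 3 ko libraries. Krt6b stood at 1170, 4604 and 2975 CPM per kb in ko and at 9.71, 31.9 and 32.4 CPM per kb in wt. It was thus above Krt17 in ko replicates 2 and 3 and below it in ko replicate 1, whereas per kb of transcript it was above Krt17 only in ko replicate 2. Ratios of ko to wt for a single gene do not depend on this choice.

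Of the 49 other protein-coding keratins 43 were tested, and 0 were called in either direction by edgeR (adjusted p below 0.05) or by DESeq2. Over all genes edgeR called 0.219% higher, and DESeq2 called 2.82% higher and 1.43% lower. At an unadjusted edgeR p below 0.05, 1 was higher and 10 were lower in ko, against 7.98% of all genes tested on the higher side and 5.25% on the lower, and the median log2 fold change of the 43 was -0.48, against 0.02 over all genes tested. In 0 of the 43 did every ko library exceed every wt library, against 11.3% of all genes tested. A further type II keratin was tested but had no transcript marked protein-coding in the reference. It is left out of the 43, of the keratin pool and of the figure. Krt1 and Krt10, the suprabasal pair, had log2 fold changes of 0.39 (SE 0.37) and 0.28 (SE 0.37), with overlapping groups. Krt15, a basal and follicle keratin, had -0.89 (SE 0.73).

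Of the 10 keratins lower at that p, those with a mean of at least 100 CPM were the hair shaft keratins Krt33a, Krt33b, Krt81, Krt83 and Krt87 and the keratins Krt77 and Krt79. Krt79, a keratin of the upper follicle, was counted at 1713, 1197 and 1436 CPM in ko and at 2334, 2404 and 1720 CPM in wt (log2 fold change -0.57, SE 0.22, edgeR adjusted p = 0.33). Krt77, a suprabasal type II keratin, stood at 619, 278 and 990 CPM in ko and at 1163, 1270 and 2268 CPM in wt (-1.32, SE 0.49, adjusted p = 0.318). In both genes the highest ko value was under the lowest wt value. This held for 4 of the 43 keratins tested, the others being Krt8 and Krt18 at low levels. Over all genes it held for 1100 of 13704, a similar share, so nothing is read from it. The hair shaft keratins Krt33b, Krt83, Krt81, Krt33a, Krt31 and Krt87 had log2 fold changes between -1.58 and -1.06, with overlapping groups and low values in wt replicate 3 as well. The inner root sheath keratins Krt71, Krt25, Krt27, Krt28, Krt72 and Krt73 lay between -0.59 and -0.14, and the companion layer keratin Krt75 at -0.41 (SE 0.39). Krt80, Krt78 and Krt23 stood at 0.04, -0.18 and -0.43.

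**Figure D4:**
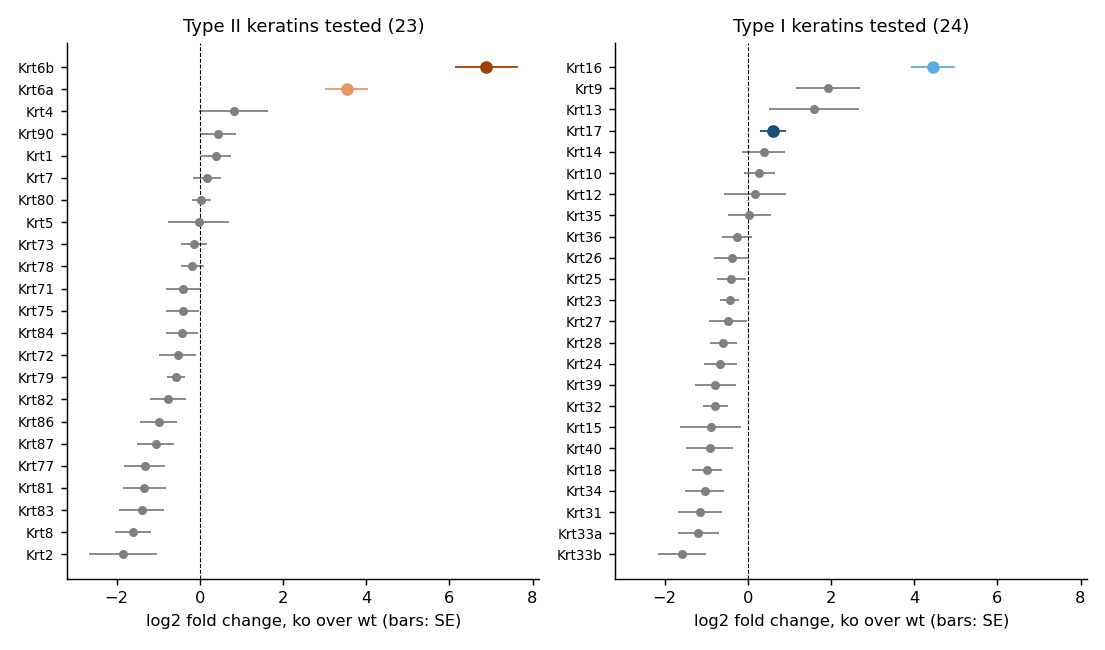
Log2 fold change of ko over wt with its SE for the 23 type II and 24 type I keratins tested among the 53 protein-coding ones, stress keratins in colour and other keratins in grey. Krt6b (6.89), Krt16 (4.45) and Krt6a (3.53) lie outside the range of the other keratins (-1.85 to 1.93), and Krt17 (0.60) lies within it.

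The members lie as neighbouring pairs beside other keratin genes. Krt6b and Krt6a are 9623 bases apart on chromosome 15, and Krt16 and Krt17 are 7315 bases apart on chromosome 11. Beyond Krt6b, 28643 bases away, lies the keratin-like gene Gm5478, with 13, 30 and 24 reads in ko and 5, 0 and 2 reads in wt (log2 fold change 3.39, SE 0.73, edgeR adjusted p = 0.105). A second gene of that kind, Gm5414, had 7, 17 and 13 reads in ko and 1, 0 and 1 in wt. Beyond Krt17, at 1853 bases, Krt42 had 4, 3 and 14 reads in ko and 9, 3 and 6 in wt and was not tested. The pseudogene Gm11597, between Krt14 and Krt16, had 4, 4 and 6 reads in ko and 0 in each wt library. Gm5478, Gm5414 and Gm11597 share windows with the members, so whether these few reads came from them or from a member was not tested.

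Reads with more than 1 alignment are reported in the same files by chromosome and were not used to pick the members. They can include reads of the members, whose difference was already known, so the tests below give no separate support for it. On chromosome 15, which carries Krt6a and Krt6b, they made up 0.625, 1.03 and 1.11% of all listed reads in ko and 0.485, 0.466 and 0.544% in wt. Every ko library was above every wt library, and ko replicate 1, the lowest for Krt6a and Krt6b, was the lowest here too. Means were 0.921 ± 0.259% in ko and 0.498 ± 0.0407% in wt (SD, n = 3 each), a ratio of 1.85 and rank 1 of 22 chromosomes, the mitochondrial one included. The exact two-sided permutation test gave p = 0.1, the smallest that 3 against 3 allows, and 0.2 after adjustment over the chromosomes 15 and 11.

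On chromosome 11, which carries Krt16, Krt17 and Krt14, not-unique reads made up 0.894, 1.14 and 1.28% in ko and 0.838, 0.823 and 1.03% in wt. Here the groups overlapped, ko replicate 1 lying below wt replicate 3. Means were 1.11 ± 0.198% in ko and 0.896 ± 0.114% in wt (SD, n = 3 each), a ratio of 1.23 at rank 4 of the 22 (exact two-sided permutation p = 0.2, also 0.2 after adjustment). Chromosomes Y and 16 stood at 1.35 each, chromosome 18 at 1.13 and the other 17 between 0.90 and 1.01. As on chromosome 15, every ko library was above every wt library on chromosome Y (exact two-sided permutation p = 0.1). Its shares were 0.00931, 0.0108 and 0.00841% in ko and 0.00676, 0.00608 and 0.00825% in wt. Reads overlapping several genes differed little on either chromosome, with means of 0.00421% in ko and 0.00419% in wt on chromosome 15, and of 0.0469% in ko and 0.0487% in wt on chromosome 11. Reads outside genes had means of 0.0195% in ko and 0.0175% in wt on chromosome 15, and of 0.0357% in ko and 0.0318% in wt on chromosome 11, and on both chromosomes the groups did not overlap.

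**Figure D5:**
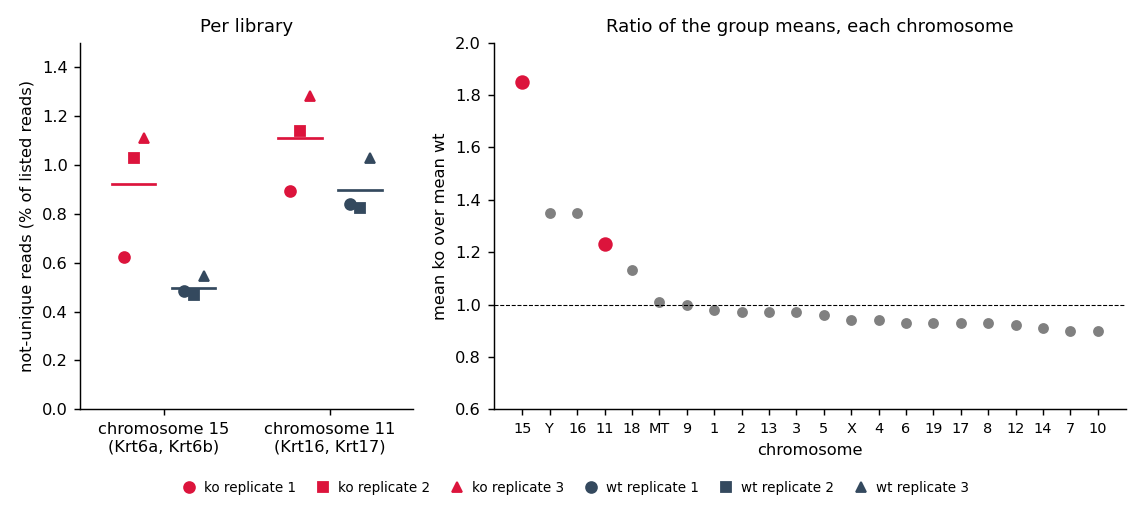
Left, reads with more than 1 alignment on chromosomes 15 and 11 as a percentage of all listed reads per library, with lines for group means (ko before wt). Right, ratio of the ko mean to the wt mean for each of 22 chromosomes, in which chromosome 15 (1.85) is at rank 1 and chromosome 11 (1.23) at rank 4.

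For scale, the reads that the members would lose were worked out from their assigned reads and their share of own windows, taking reads to be spread evenly along each transcript. With an exact match required to lose a read, Krt6a and Krt6b together would lose 0.0803, 0.261 and 0.244% of all listed reads in ko and 0.00795, 0.00903 and 0.00589% in wt. With up to 2 mismatches they would lose 0.17, 0.565 and 0.515% in ko and 0.0145, 0.0169 and 0.0115% in wt. Krt16 and Krt17 would lose 0.226, 0.556 and 0.549% in ko and 0.0406, 0.0342 and 0.0585% in wt with up to 2 mismatches, and 0.0631, 0.161 and 0.154% in ko and 0.00826, 0.00663 and 0.0139% in wt with none. These are estimates and not counts. How the files tally a read with several alignments is not given in the sources used here, and which genes the not-unique reads came from was not tested.

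Among genes outside the family, the 3 with the pattern most like each member were found by the root mean square difference of log2 CPM, each gene centred on its mean over the 6 libraries, among 9942 candidates. Nearest to Krt16 were the chemokine receptor Cxcr2 (a difference of 0.28 log2) and the cornified envelope precursors Sprr2d (0.30) and Sprr2e (0.37). Krt6a was nearest to the late envelope gene Lce3f (0.49), the protease inhibitor Serpinb3c (0.50) and the retinaldehyde dehydrogenase Aldh1a3 (0.51). Krt6b was nearest to the cytokine Tslp (0.55), the alarmin S100a8 (1.01) and Sprr2a3 (1.19).

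Sprr2d, for one, stood at 61.6, 189 and 112 CPM in ko and at 3.61, 4.47 and 5.76 CPM in wt, with the same library lowest within ko as for Krt16. Krt17 was nearest to Shf (0.11), to Ndrg1 (0.13), a gene induced by stress and low oxygen, and to the envelope precursor Sprr1a (0.15). Sprr1a was measured at 636, 633 and 954 CPM in ko and at 490, 626 and 365 CPM in wt. Between members the difference was 0.93 for Krt6a and Krt16, 1.37 for Krt6b and Krt16 and 1.56 for Krt6a and Krt17. It was 1.88 for Krt6a and Krt6b, 2.07 for Krt16 and Krt17 and 3.28 for Krt6b and Krt17. The genes named above were the closest of 9942 candidates, and the measure includes the size of the ko to wt difference. Nothing is therefore read from members lying further apart than such genes. All these values share the same 6 libraries.

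Stress keratins are known to respond to EGF receptor ligands, inflammatory cytokines and the factors downstream of them. A list of 38 genes held such genes and others, among them Nfe2l2, Keap1, Gli1, Gli2, Nr3c1, Thrb, Rara and Rarg. Of the 38, 31 were tested and 0 were called by edgeR, which called 0.219% of all genes tested. DESeq2 called Hbegf, Areg and Ereg higher and Btc lower (over all genes it called 2.82% higher and 1.43% lower). At an unadjusted edgeR p below 0.05, 12 were higher and 1 was lower, against 7.98% of all genes tested on the higher side and 5.25% on the lower, and the median log2 fold change was 0.24, against 0.02 over all genes. In 16 of the 31 the ko values were all above the wt values, against 11.3% of all genes tested. In 3 (Btc, Rarg and Keap1) they were all below, against 1100 of all 13704 genes tested.

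The 3 smallest p of that list belonged to ligands of the EGF receptor. Hbegf, which drives keratinocyte migration, stood at 154, 155 and 208 CPM in ko and at 67.4, 72.5 and 90.5 CPM in wt (log2 fold change 1.17, SE 0.18, edgeR adjusted p = 0.0688). Areg, amphiregulin, stood at 31.4, 36.1 and 52.2 CPM in ko and at 15.5, 16.5 and 17.6 CPM in wt (1.27, SE 0.20, adjusted p = 0.0783). Ereg, epiregulin, stood at 194, 259 and 290 CPM in ko and at 108, 131 and 101 CPM in wt (1.13, SE 0.19, adjusted p = 0.0822). For all 3 ligands the groups did not overlap and ko replicate 3 was the highest. The ligand betacellulin, Btc, was on the lower side in every ko library, at 214, 197 and 121 CPM in ko and 360, 435 and 246 CPM in wt (-0.97, SE 0.29, adjusted p = 0.217).

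The cytokine Il1a was counted at 77, 110 and 94.8 CPM in ko and at 59.1, 68 and 53 CPM in wt (log2 fold change 0.65, SE 0.17, edgeR adjusted p = 0.169). Stat3, a transcription factor that acts below several cytokine receptors, was counted at 283, 262 and 318 CPM in ko and at 209, 197 and 228 CPM in wt (0.44, SE 0.13, adjusted p = 0.22). The groups did not overlap in either gene, and neither passed the threshold.

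Transcripts of proteins that bind or anchor keratin filaments were listed too. Of 22 listed, 20 were tested and 0 were called by edgeR or DESeq2. Over all genes edgeR called 0.219% higher, and DESeq2 called 2.82% higher and 1.43% lower. At an unadjusted edgeR p below 0.05, 1 was higher and 1 was lower, against 7.98% and 5.25% of all genes tested. The median log2 fold change was 0.10, against 0.02 over all genes tested. Nothing is read from counts this small. Sfn, which encodes the 14-3-3 sigma that Krt17 binds, stood at 1758, 1995 and 1892 CPM in ko and at 1205, 1381 and 1526 CPM in wt (0.46, SE 0.17, edgeR adjusted p = 0.313). The small heat shock protein gene Hspb1 stood at 633, 572 and 463 CPM in ko and at 723, 885 and 662 CPM in wt (-0.44, SE 0.19, adjusted p = 0.376). The groups did not overlap in either gene. Of the 20 tested, 1 had all ko values above all wt values, against 11.3% of all genes tested. In 1 they were all below, against 1100 of all 13704 genes tested. Rhbdf2, whose protein binds Krt16, had a log2 fold change of 0.28, and the desmosomal plakophilin gene Pkp1 one of 0.36. The adaptor gene Ywhaz stood at 0.22 and the ubiquitin ligase gene Stub1 at -0.21, and in these 4 genes the groups overlapped. The 7 basal genes listed, Krt5 and Krt14 among them, had a median log2 fold change of -0.03. EdgeR and DESeq2 called 0 of them, and 0 were below an unadjusted p of 0.05, beside the same shares over all genes. With 7 genes nothing is read from these counts.

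Since the follicle is the usual home of these keratins, markers of its parts and of other cells were summed per library. Outer root sheath markers ran from 985 to 3046 CPM in ko and from 721 to 2446 CPM in wt, inner root sheath markers from 4349 to 6936 CPM in ko and from 4172 to 12024 CPM in wt. Hair shaft markers ran from 466 to 857 CPM in ko and from 596 to 1861 CPM in wt, so the groups overlapped for each follicle list. Within ko the outer root sheath sum was 1016 CPM in replicate 1, where Krt6a, Krt6b and Krt16 were lowest. It was 985 CPM in replicate 2, where those 3 were highest, and 3046 CPM in replicate 3, beside the highest Krt17. Krt15, also listed among the basal genes, made up 439, 337 and 1023 CPM of these sums. In wt it made up 1083, 262 and 1984 CPM of 1546, 721 and 2446 CPM. For 2 of the 9 outer root sheath markers all ko values were above all wt values, against 11.3% of all genes tested, and for 0 below. DESeq2 called Cd34 higher and 0 of them lower, against 2.82% higher and 1.43% lower over all genes.

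Markers of cells outside the epidermis stood partly higher in ko. The 8 fibroblast markers summed to 579, 743 and 167 CPM in ko and to 55.6, 129 and 159 CPM in wt, and for 6 of the 8 the ko values were all above the wt values, against 11.3% of all genes tested. The 7 endothelial markers summed to 18.5, 20.4 and 9.86 CPM in ko and to 4.23, 3.35 and 3.58 CPM in wt, and for all 6 tested the ko values exceeded the wt values. EdgeR called 0 markers of either list, while DESeq2 called 6 fibroblast and 4 endothelial markers higher, against 2.82% of all genes. Myeloid markers ran from 94.1 to 128 CPM in ko and from 64.3 to 108 CPM in wt, with the neutrophil marker Ly6g at 0. T cell markers ran from 20 to 53.5 CPM in ko and from 30 to 42.1 CPM in wt, and melanocyte markers from 79.5 to 128 CPM in ko and from 61.6 to 74 CPM in wt. Their part in the levels of the stress keratins was not tested. Within ko, the fibroblast and endothelial sums were highest in replicate 2, as were Krt6a, Krt6b and Krt16, and lowest in replicate 3.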

How the data were processed

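The deposited values are whole-number read counts per Ensembl gene, not normalized, in 1 file per library. Per the submitters' processing notes, TopHat2 2.0.12, Bowtie 1.1, HTSeq and the mm10 build were used by the authors. Per the labels' protocols, the library kit was TruSeq Stranded mRNA and reads were single ends of 51 bp. Settings, strand option and annotation are not stated in the sources used here. Reads that were not unique (32.4 to 40.9% of all listed reads), ambiguous or outside genes are listed per chromosome and stayed out of library sizes and tests. Nothing in the labels names animals, so p-values measure the spread between these libraries. No replicates agreed within sampling noise.

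Symbols came from a reference table (40254 of 41214 identifiers matched) and coordinates and transcripts from GENCODE M21 on GRCm38, the assembly of mm10. Genes were filtered with filterByExpr, scaled by TMM and tested with the robust quasi-likelihood test of edgeR 4.0.16 in R 4.3.3 (group only, Benjamini-Hochberg). DESeq2 1.42.0 and limma-voom (limma 3.58.1) were alternatives. The scripts were tested on simulated data. SEs were taken as the log2 fold change divided by the root of the F statistic. Length was that of each gene's longest protein-coding transcript. The other alternatives were no filter, a filter of 1 CPM in 3 libraries, other scalings, a replicate block, a covariate for dated titles, the 4 dated libraries, other lengths and leaving out each library.

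The members and gene lists were chosen with earlier results of these data known. The text names the members, their coding neighbours, other keratins with a mean of at least 100 CPM, the 3 genes most like each member (mean of at least 5 CPM) and up to 6 genes with the smallest p from the inducer and the filament partner lists. Windows shared with Krt5 and with keratin-like genes or pseudogenes are named as the search found them, so those genes, and the reads of Gm5414 and Gm11597, were named after the values were seen.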

Additional observations from a re-analysis of the deposited data

How the results depend on the processing

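The log2 fold changes of Krt6a, Krt6b and Krt16 moved by less than 1 replicate SD in all 15 alternatives tried for each. Leaving out each library in turn gave 3.21 to 3.86 for Krt6a, 6.39 to 7.27 for Krt6b, 4.11 to 4.89 for Krt16 and 0.19 to 0.76 for Krt17, and Krt17 fell to 0.05 in the 4 dated libraries. The balance difference of -2.89 log2 was -2.36 per own window with up to 2 mismatches and -0.10 without Krt17, and its other 10 alternatives stayed within 1 SD (-3.09 to -2.67 leaving out libraries). The pool difference of 6.50 percentage points was 15.13 per own window, an alternative chosen after seeing the data, and 4.29 to 8.60 leaving out libraries. Own windows with an exact match and all annotated exons were also added after seeing the data. The chromosome ratios of not-unique reads ran from 1.66 to 2.14 for chromosome 15 and from 1.13 to 1.35 for chromosome 11 leaving out libraries.

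The number of genes called, 30, was 57 without a filter, 18 with a filter of 1 CPM, 650 with DESeq2, 0 with limma-voom, 709 with the covariate for dated titles, 227 in the 4 dated libraries and 0 to 64 leaving out libraries (1229 to 2350 at an unadjusted p below 0.05 where it was 0). The causes were not tested. With a replicate block it was 354, Krt6a among them. Correlations between ko and wt libraries were taken over genes, on deviations of log2 CPM from the mean of each library's own group. They are not correlations of levels. Deviations within a group of 3 balance out, so these values are not independent of each other. Same-numbered libraries correlated at -0.186, 0.469 and 0.67 for replicates 1, 2 and 3. The numbers do not pair replicate 1, since ko replicate 1 correlated best with wt replicate 2 (0.509). The replicate 3 libraries, titled Tryp and without a date, had the highest such correlation of any ko and wt libraries. Their deviations thus went together across genotypes. What the dates stand for, and whether the Tryp libraries were prepared in another way, is not given in the sources used here. The block left the log2 fold changes at 3.52 for Krt6a, 6.87 for Krt6b, 4.42 for Krt16 and 0.54 for Krt17. With 3 libraries a group, the exact test cannot go below p = 0.1.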
